A study of Mus musculus with 9 samples.

Results

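Genes that let the liver send lipid into plasma were followed by RNA sequencing in cultured primary mouse hepatocytes. The set holds 8 apolipoprotein genes (Apob, Apoa1, Apoa2, Apoa4, Apoa5, Apoc1, Apoc3 and Apoe), Mttp, which encodes the large subunit of the microsomal triglyceride transfer protein, and Lcat, which encodes lecithin-cholesterol acyltransferase. The 10 genes were taken by name out of 56691 genes in the deposited table, with earlier results of these data known, and all 10 were among the 18379 genes that passed the filter on low counts. Libraries came from cells labelled Bobcat339, an inhibitor of TET dioxygenases (3 libraries), from cells labelled 4-octyl itaconate (4OI), an itaconate ester made to enter cells (3 libraries), and from cells labelled DMSO, the solvent control (3 libraries). All cells had 4 h to attach and then 24 h in fresh medium. Neither dose nor length of treatment is given in the sources used here. A treatment note shared by all libraries also mentions Remodelin hydrobromide, which inhibits the acetyltransferase NAT10, as optional, without saying which cells had it. Each 4OI title has the same number after the cell name, whereas the DMSO titles have different ones. Whether replicates came from separate animals or cultures is not in the labels, and the spread behind each p-value may therefore be technical.

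Hepatocytes build very-low-density lipoprotein (VLDL) around 1 molecule of apolipoprotein B, which the Mttp product loads with triglyceride in the endoplasmic reticulum while the protein is still being made. They also secrete apolipoprotein A-I and A-II, the main proteins of high-density lipoprotein (HDL), on which Lcat turns cholesterol into cholesteryl ester. Small exchangeable apolipoproteins move between these particles and tune their breakdown by lipoprotein lipase and their return to the liver.

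The 4OI libraries departed from their cell type label, which bears on every value below. The summed level of 13 hepatocyte markers was 3632 to 3881 CPM (counts scaled to a common library size) in 4OI libraries, against 54774 to 60817 CPM in DMSO libraries, and all 13 were lower. The sum of 13 macrophage and Kupffer cell markers was 5966 to 6189 CPM in 4OI libraries, against 675 to 748 CPM in DMSO libraries, with all 13 higher. For 9 liver endothelial markers the sum was 3593 to 3751 CPM in 4OI libraries, against 134 to 157 CPM in DMSO libraries, with all 9 higher. Bobcat339 libraries had hepatocyte marker sums of 52569 to 58082 CPM, with 1 of the 13 called lower (Hnf4a), and macrophage sums of 314 to 352 CPM. In these bulk samples fewer hepatocytes and less RNA per hepatocyte cannot be told apart. Library totals ran from 67434312 to 83902788 deposited counts, and mitochondrially encoded genes held 2.36% to 3.12% of counts with Bobcat339, 8.37% to 8.98% with 4OI and 4.43% to 5.59% with DMSO.

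With Bobcat339 none of the 10 genes passed the test, and with 4OI all 10 were lower. A gene was called where edgeR's quasi-likelihood test gave a Benjamini-Hochberg adjusted p under 0.05 over all genes. For Bobcat339 against DMSO, 0 of 10 were called, while 20.7% of all genes tested were called (11.6% higher and 9.06% lower). None of the 10 had an unadjusted p under 0.05 in this fit. DESeq2 also called 0, with 1 gene (Apoa5) at an unadjusted p under 0.05, and edgeR with RLE scaling, with library size only or with a replicate block gave the same counts. Replicate 1 of Bobcat339 stood apart from the other 2 in its level of colon markers, and without it 0 of the 10 were called, with a median log2 fold change of -0.17 and 1 gene (Apoa5) at an unadjusted p under 0.05. For 4OI against DMSO, 10 of 10 were called lower, while 63.7% of all genes were called (33.3% higher and 30.4% lower). In each of the 10 the 4OI libraries lay below all DMSO libraries, and how common such a gap was over all genes was not counted. The median log2 fold change of the 10 genes was -0.04 with Bobcat339 and -3.17 with 4OI, beside -0.01 and 0.08 over all genes tested. The 2 comparisons share the DMSO libraries.

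**Figure D1:**
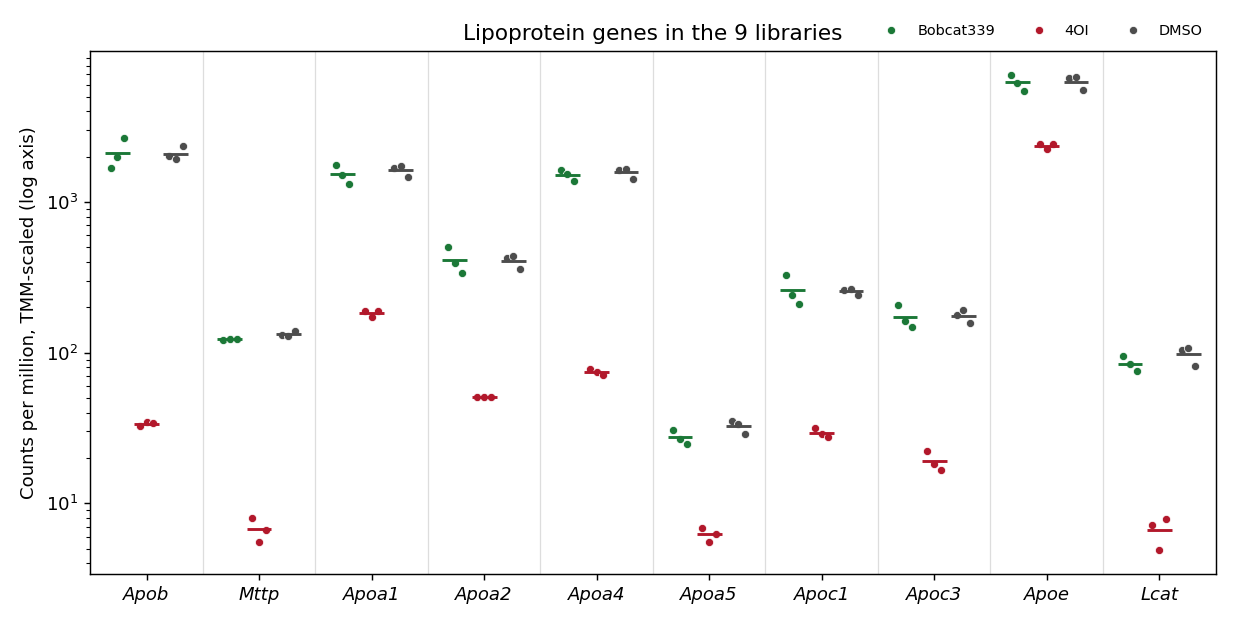
Level of each lipoprotein gene in CPM after TMM scaling, on a log axis, with a point for each library and a bar at the mean of the 3 libraries of a group. The Bobcat339 and DMSO points lie side by side in every gene, and the 4OI points lie below both, from 2241 to 2420 CPM for Apoe and from 4.92 to 7.93 CPM for Lcat.

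Promoters of 3 of these genes are shown, since they span the range of response to 4OI: Apob fell the most, Apoe the least, and Apoa4 was the only one of the 8 searched with an exact match to CAAAGTCCA or CAAAGTTCA, runs of the type that HNF4A binds. Each run ends at the last base before the more upstream of the RefSeq and GENCODE start sites, so no base transcribed from either is included. Sequences and coordinates are from RefSeq on GRCm38.p6, and capitals mark a searched motif. Apob lies at chr12:7977427-7977647 (plus strand), Apoa4 at chr9:46240594-46240695 (plus strand) and Apoe at chr7:19699189-19699438 (minus strand).
Apob: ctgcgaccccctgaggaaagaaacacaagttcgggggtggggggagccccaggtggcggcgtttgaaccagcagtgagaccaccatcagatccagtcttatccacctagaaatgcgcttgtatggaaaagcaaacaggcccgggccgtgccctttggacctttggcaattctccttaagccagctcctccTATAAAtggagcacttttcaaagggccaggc
Apoa4: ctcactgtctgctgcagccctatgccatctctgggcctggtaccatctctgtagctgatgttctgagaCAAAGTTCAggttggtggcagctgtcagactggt
Apoe: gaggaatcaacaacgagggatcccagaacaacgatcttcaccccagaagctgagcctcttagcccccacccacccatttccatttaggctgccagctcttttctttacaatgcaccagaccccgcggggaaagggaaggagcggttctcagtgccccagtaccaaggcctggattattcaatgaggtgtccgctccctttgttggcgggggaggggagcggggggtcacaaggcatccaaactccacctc

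The capitals in Apob are the TATA box letters TATAAA, and those in Apoa4 are CAAAGTTCA. RefSeq promoters, taken as 300 bases around the start site, were at hand for 8 of the 10 genes. On either strand TATAAA was found in 3 of the 8 (Apoa2, Apoa5 and Apob), beside 13.6% of 32851 promoters of the same length. The letters CAAAGTTCA were found in 1 of the 8, beside 0.39% of all promoters, and CAAAGTCCA in 0 of the 8, beside 0.475%. Sequences related to these runs but spelled otherwise were not searched, so the absence of a match says only that these letters were not in the window. No 2 matches overlapped. The Mttp promoter in that table belongs to a start site 12041 bases from that of the principal transcript.

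The genes that build the VLDL particle were far lower with 4OI, and Apob fell the most of all 10. Apob, the structural protein of VLDL and LDL, had 32.6, 34.5 and 34.0 CPM in 4OI libraries, against 2006, 1940 and 2333 CPM in DMSO libraries. It was 62.1-fold lower (log2 fold change -5.96, SE 0.18, adjusted p = 5.28e-10). In Bobcat339 libraries it had 1671, 1991 and 2657 CPM, a range that encloses all DMSO libraries (log2 fold change 0.01, SE 0.14, adjusted p = 0.981). Mttp had 8.06, 5.59 and 6.66 CPM in 4OI libraries, against 131, 128 and 140 CPM in DMSO libraries. That was a 19.7-fold fall (log2 fold change -4.30, SE 0.13, adjusted p = 5.02e-10). Mttp was the only one of the 10 genes whose Bobcat339 libraries, at 122, 123 and 123 CPM, did not overlap with DMSO, yet the log2 difference of -0.12 (SE 0.11) missed the threshold with an adjusted p of 0.517.

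Genes for the HDL proteins fell less than Apob. Apoa1, the scaffold of HDL, had 189, 172 and 188 CPM in 4OI libraries, against 1686, 1721 and 1457 CPM in DMSO libraries, and was 8.85-fold lower (log2 fold change -3.15, SE 0.12, adjusted p = 2.61e-09). Apoa2, the second HDL protein, had 50.5, 51.0 and 51.1 CPM in 4OI libraries, against 427, 438 and 360 CPM in DMSO libraries, and was 8.02-fold lower (SE of the log2 fold change 0.14). The 4OI libraries were closely grouped for both genes. With Bobcat339 the levels of Apoa1 were 1766, 1501 and 1312 CPM and those of Apoa2 506, 391 and 338 CPM, and in each case the range enclosed all 3 DMSO values. Lcat, which acts on HDL once it is in plasma, had 7.24, 4.92 and 7.93 CPM in 4OI libraries, against 104, 107 and 81.8 CPM in DMSO libraries. It was 14.6-fold lower (log2 fold change -3.86, SE 0.19, adjusted p = 1.91e-08). In Bobcat339 libraries Lcat had 95.3, 83.8 and 75.1 CPM, which overlapped with DMSO (log2 fold change -0.20, SE 0.17, adjusted p = 0.461).

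The genes for the triglyceride-regulating apolipoproteins spanned a wide range of levels and fell by unequal amounts. Apoa4, made in mouse liver as well as in intestine, had 77.4, 74.5 and 70.8 CPM in 4OI libraries, against 1633, 1664 and 1414 CPM in DMSO libraries. At 21.2-fold lower (log2 fold change -4.40, SE 0.10, adjusted p = 1.6e-10) it ranked next to Apob, and its 95% interval of -4.63 to -4.17 overlapped that of Mttp. Apoa5, which promotes triglyceride breakdown by lipoprotein lipase, had 6.91, 5.56 and 6.30 CPM in 4OI libraries, against 35.0, 33.6 and 28.7 CPM in DMSO libraries, a 5.18-fold fall. Apoa5 also had the smallest unadjusted p of the 10 genes with Bobcat339 (0.0828, edgeR), where its levels of 30.7, 26.9 and 24.9 CPM came out at -0.24 on the log2 scale (SE 0.12, adjusted p = 0.223). Apoc1 and Apoc3, which slow lipolysis and the uptake of remnant particles, were close to each other in their response. Apoc1 had 31.7, 28.9 and 27.7 CPM in 4OI libraries, against 261, 265 and 242 CPM in DMSO libraries, 8.69-fold lower. Apoc3 had 22.3, 18.3 and 16.8 CPM in 4OI libraries, against 179, 190 and 157 CPM in DMSO libraries, 9.17-fold lower. In Bobcat339 libraries Apoa4 had 1366 to 1630 CPM, Apoc1 212 to 326 CPM and Apoc3 148 to 209 CPM, all overlapping with DMSO.

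Apoe, a ligand through which remnant particles are taken up by the liver, was the least affected. It had 2413, 2241 and 2420 CPM in 4OI libraries, against 6612, 6738 and 5517 CPM in DMSO libraries. The fall was 2.67-fold (log2 fold change -1.42, SE 0.10, adjusted p = 5.13e-07), and the 95% interval of -1.65 to -1.18 lay apart from the interval of every other member. In Bobcat339 libraries Apoe had 6944, 6194 and 5455 CPM, spanning the DMSO values. Macrophages are a known further source of apolipoprotein E, and macrophage markers rose in the 4OI libraries, with Lyz2 at 1667 ± 101 CPM, against 163 ± 2.60 CPM in DMSO libraries (SD, n = 3 each). Their part in the level of Apoe was not tested.

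**Figure D2:**
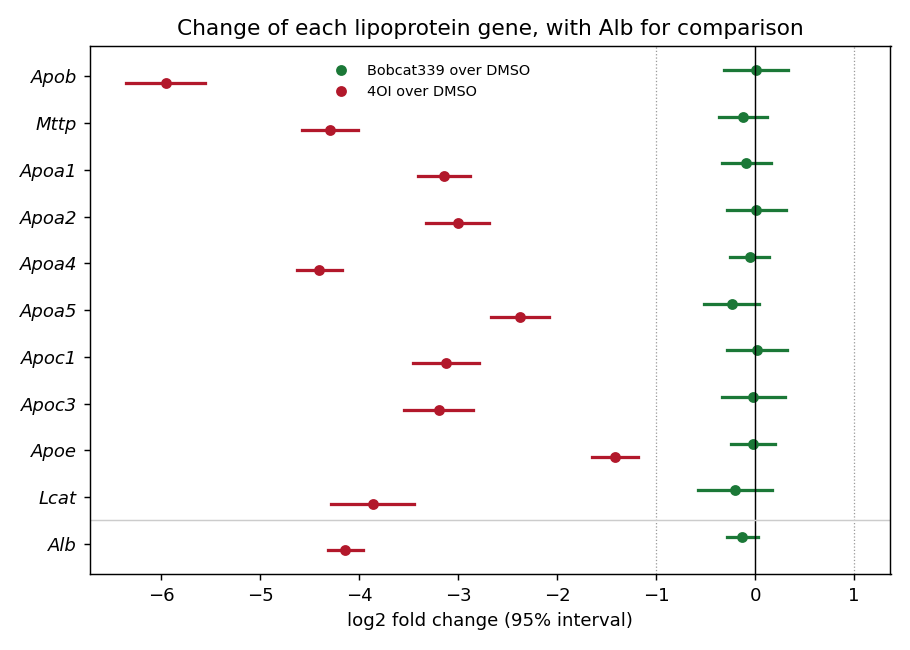
Log2 fold change of each lipoprotein gene and of Alb over DMSO, with the 95% interval from edgeR and dotted lines at 2-fold. The Bobcat339 intervals all include 0 and stay within 2-fold, while the 4OI estimates run from -5.96 for Apob to -1.42 for Apoe.

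The Bobcat339 intervals set the size of change that these libraries leave room for. Over the 10 genes the 95% intervals of the log2 fold change reached down to -0.57 for Lcat and up to 0.33 for Apob, so a 2-fold change in either direction lay outside all of them. Missing the threshold does not show that the levels were equal.

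Replicates of a group differed, and among the Bobcat339 libraries the difference was ordered by transcript length. On the log2 scale replicate 3 minus replicate 1 of Bobcat339 was 0.67 for Apob, with a principal transcript of 13934 bases, 0.02 for Mttp, -0.58 for Apoa2, with 518 bases, and -0.62 for Apoc1. Across all genes with at least 10 CPM the same difference had a median of 0.27 for 1800 genes over 5 kb, of -0.01 for 4622 genes of 2 to 5 kb, of -0.22 for 1731 genes of 1 to 2 kb and of -0.31 for 534 genes under 1 kb. Among the DMSO libraries the order was not complete. Replicate 3 of DMSO minus the mean of the other 2 had medians of 0.13 for genes over 5 kb, -0.02 for 2 to 5 kb, -0.12 for 1 to 2 kb and -0.05 for genes under 1 kb. It was 0.24 for Apob and -0.26 for Apoa2, but -0.37 for Lcat, with 1342 bases, and -0.12 for the shorter Apoc1, with 532 bases. Replicate 3 of 4OI minus the mean of the other 2 had medians of 0.05, 0.03, -0.04 and -0.15 in the same order of classes, and was 0.02 for Apob, 0.38 for Lcat and -0.26 for Apoc3. The part of transcript length in these differences was not tested. For 4OI against DMSO the medians of the log2 fold change were 0.41 for genes over 5 kb and -0.56 for genes under 1 kb, so Apob, the longest of the 10, moved against the median of its length class. Over the 10 genes log2 length and the log2 fold change with 4OI had a Pearson r of -0.632 and a Spearman rho of -0.442, given as a description since genes are not replicates.

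The composition of the pool of lipoprotein transcripts shifted with 4OI. Levels were divided by the length of the principal transcript for comparison between genes. In CPM per kilobase the order was Apoe, Apoa1, Apoa4, Apoa2, Apoc1, Apoc3, Apob, Lcat, Mttp and Apoa5 in both Bobcat339 and DMSO libraries. The neighbours Apoa4 and Apoa2 were close, with 833 ± 74.1 and 795 ± 166 CPM per kilobase in Bobcat339 libraries and 865 ± 75.1 and 788 ± 81.0 in DMSO libraries (SD, n = 3 each). Apoa4 was above Apoa2 in every DMSO library, whereas Bobcat339 replicate 1 had the reverse order. In 4OI libraries the order was Apoe, Apoa1, Apoa2, Apoc1, Apoa4, Apoc3, Lcat, Apoa5, Apob and Mttp. There the neighbours Apoa5 and Apob were at 2.49 ± 0.27 and 2.42 ± 0.07 CPM per kilobase, within their spread. Apoa4 and Apoc3 were also close, at 40.9 ± 1.82 and 36.3 ± 5.40.

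Apoe took most of the pool that was left. It made up 80.0% ± 0.46 of the summed CPM per kilobase of the 10 genes in 4OI libraries and 51.4% ± 0.74 in Bobcat339 libraries, against 50.9% ± 0.72 in DMSO libraries (SD, n = 3 each). Apoa1 held 8.45% ± 0.10 in 4OI libraries, against 17.9% ± 0.10 in DMSO libraries. Apob held 0.116% ± 0.008 in 4OI libraries, against 1.73% ± 0.35 in DMSO libraries. For 4OI against DMSO no member's share overlapped between the groups (exact permutation test, two-sided, with p = 0.1 for each gene, which is the lowest value that groups of 3 permit). For Bobcat339 against DMSO only the shares of Apoa1, Apoa5 and Lcat did not overlap, with the same smallest p of 0.1 by that exact test. These differences were small, with Apoa1 at 17.2% ± 0.31 in Bobcat339 libraries. The 10 shares of a library add up to the whole, so a larger share of Apoe leaves less for the others. The tests of single genes are therefore not independent of each other.

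**Figure D3:**
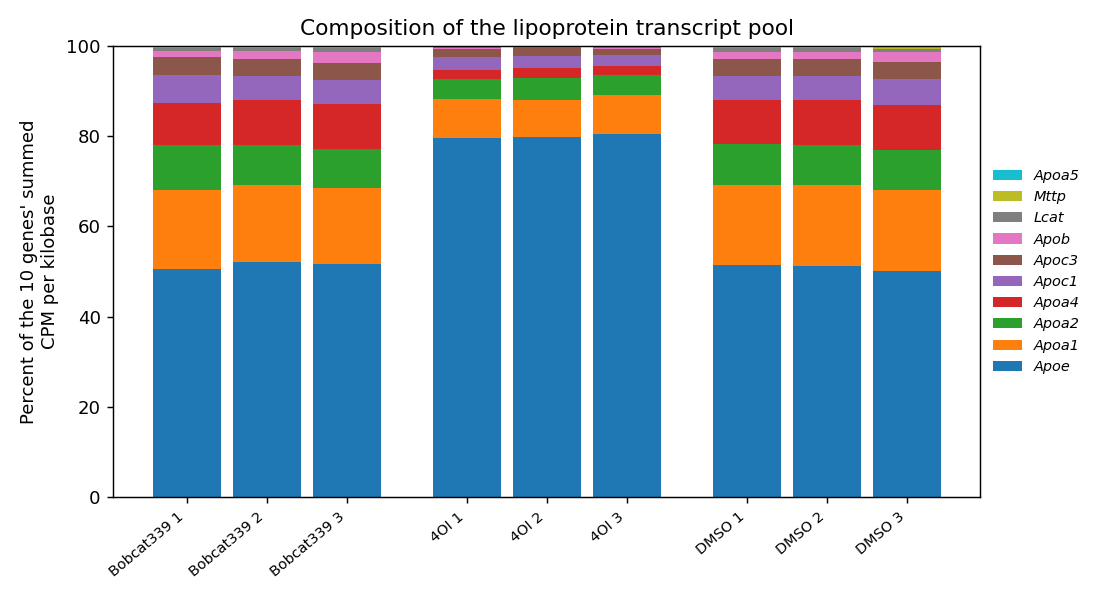
Share of each gene in the summed CPM per kilobase of the 10 lipoprotein genes, as stacked percentages with a bar for each library. Apoe fills 80.0% of the bars on average in 4OI libraries, against 50.9% in DMSO libraries, and 51.4% in Bobcat339 libraries.

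As a share of all counts of a library, the 10 genes together held 0.299%, 0.277% and 0.296% in 4OI libraries, against 1.29%, 1.30% and 1.16% in DMSO libraries. The mean was 4.31-fold lower with 4OI (exact permutation test, two-sided p = 0.1, the smallest possible). With Bobcat339 the share was 1.27%, 1.18% and 1.13%, which overlapped with DMSO (exact permutation test, p = 0.4). Apoe holds the most counts, and without it the other 9 genes held 0.0448%, 0.0415% and 0.0429% in 4OI libraries, against 0.640%, 0.637% and 0.615% in DMSO libraries. The log2 ratio of 4OI over DMSO was then -3.87, in place of -2.11 with all 10.

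Set against albumin, the lipoprotein genes did not all move by the same amount as Alb. Alb had 1396 ± 72.0 CPM in 4OI libraries, against 24633 ± 116 CPM in DMSO libraries (SD, n = 3 each). Its log2 fold change was -4.14 (SE 0.08). The 13 hepatocyte markers themselves ran from -5.88 (Hnf4a) to -2.49 (Tat) with 4OI. Of the lipoprotein genes only Apob, Apoa5 and Apoe had point estimates outside that range. The 95% interval of Apob, -6.36 to -5.56, overlapped that of Hnf4a, -6.28 to -5.48. The interval of Apoa5, -2.67 to -2.08, overlapped that of Tat, -2.85 to -2.14. The interval of Apoe, -1.65 to -1.18, lay apart from that of Tat. The log2 ratio of Apoe to Alb was 0.80, 0.75 and 0.72 in 4OI libraries, against -1.89, -1.87 and -2.16 in DMSO libraries, so the ratio was above 0 on the log2 scale only with 4OI. Relative to Alb, Apoe was 6.64-fold and Apoa5 3.41-fold higher in 4OI libraries. Apoa1, Apoa2, Apoc1 and Apoc3 were 1.92-fold to 2.21-fold higher. Apob was 3.51-fold lower relative to Alb, and Apoa4 was 1.20-fold lower. These 8 genes did not overlap between 4OI and DMSO libraries, and each had the smallest possible p of 0.1 in a two-sided exact permutation test. The ratios of Mttp (difference of log2 ratios -0.17) and Lcat (0.26) overlapped. With Bobcat339 the ratios of all 10 genes overlapped with DMSO, with differences of the log2 ratio of -0.11 to 0.13. With Ttr, the plasma carrier transthyretin, in place of Alb, the median difference over the 10 genes for 4OI was 0.19 in place of 0.97. Ttr itself had a log2 fold change of -3.37 (SE 0.12), nearer than Alb to those of Apoa1, Apoa2, Apoc1 and Apoc3. Lcat, at -3.86, fell less than Alb but more than Ttr, and Mttp and Apoa4 also fell more than Ttr. The size of these results, and for Lcat the direction, therefore depends on the hepatocyte gene used.

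**Figure D4:**
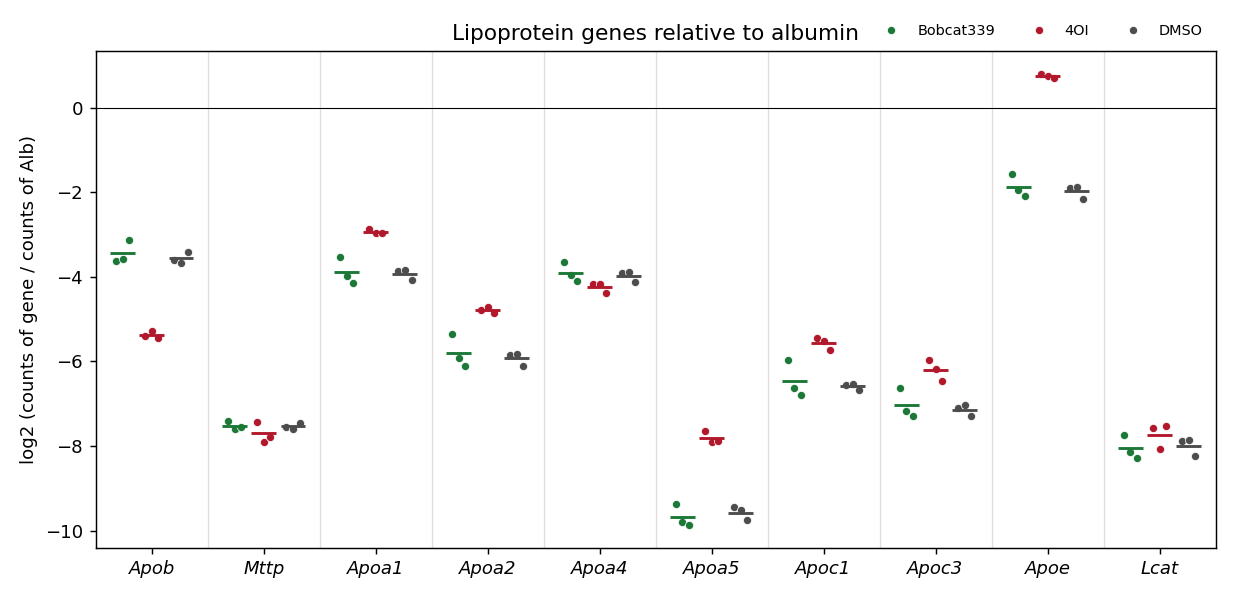
Log2 ratio of each lipoprotein gene's counts to those of Alb in the same library, with a point for each library and a bar at the group mean. Apoe lies above 0 only in the 4OI libraries, Apob lies lower with 4OI than with DMSO, and Mttp and Lcat overlap between all groups.

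Short stretches of 2 chromosomes hold 6 of the 10 genes. In the GRCm38.p6 gene order Apoa1, Apoc3, Apoa4 and Apoa5 follow each other on chromosome 9, and Apoc1 and Apoe stand beside Apoc2 and Apoc4 on chromosome 7. Genes within a cluster fell by unequal amounts with 4OI, from -2.37 for Apoa5 to -4.40 for Apoa4 on chromosome 9 and from -1.42 for Apoe to -3.12 for Apoc1 on chromosome 7. The next genes outside, taken by position after the data had been seen, moved less. Beside Apoa1, the kinase gene Sik3 was at 0.01 on the log2 scale with 4OI (SE 0.07, adjusted p = 0.903). Beside Apoa5, Zpr1 had -1.06 (SE 0.09). Beside the Apoe cluster, Clptm1 had -0.25 (SE 0.10) and the mitochondrial import gene Tomm40 had -0.74 (SE 0.10). Apoc2 at -2.57 (SE 0.71) and Apoc4 at -2.82 (SE 0.18) overlap an annotated read-through gene, so their counts are uncertain.

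Of 11 further apolipoprotein genes, 10 were tested and 10 were called lower with 4OI, beside 30.4% of all genes tested. Their median log2 fold change was -3.62. In 9 of them the 4OI and DMSO libraries did not overlap, and Apoc2 was the exception. The share of all genes with such a gap was not counted, so this number has no baseline. Clu, the chaperone clusterin that travels on HDL, had 141 ± 2.93 CPM in 4OI libraries, against 4529 ± 411 CPM in DMSO libraries (log2 fold change -5.01, SE 0.10, adjusted p = 8.53e-11, edgeR). Apoh, a phospholipid-binding glycoprotein, had a log2 fold change of -3.67 (SE 0.09) and Apof, an inhibitor of lipid transfer in humans, one of -3.85 (SE 0.11). With Bobcat339, 2 of the 10 were called, both lower, a share close to the 20.7% called over all genes tested. Saa4, a serum amyloid A protein of HDL, had 18.1 ± 0.55 CPM in Bobcat339 libraries, against 29.8 ± 2.21 CPM in DMSO libraries (log2 fold change -0.72, SE 0.13, adjusted p = 0.00392). Clu had 3440 ± 270 CPM in Bobcat339 libraries (log2 fold change -0.40, SE 0.08, adjusted p = 0.00746).

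Partners of VLDL assembly were mostly lower with 4OI. Of 15 such genes 14 were called lower and 1 higher, beside 30.4% and 33.3% of all genes tested. The median log2 fold change was -1.35, with a range from -6.04 to 0.97. Dgat2, which makes triglyceride for secretion, had 7.47 ± 0.66 CPM in 4OI libraries, against 142 ± 19.7 CPM in DMSO libraries (log2 fold change -4.24, SE 0.14). Cideb, which takes part in the lipidation of VLDL, had a log2 fold change of -5.78 (SE 0.23), and the deacetylase Aadac one of -2.79 (SE 0.15). The gene that rose was Apobec1, the enzyme that edits Apob mRNA, at 61.5 ± 1.25 CPM in 4OI libraries, against 31.4 ± 1.65 CPM in DMSO libraries (log2 fold change 0.97, SE 0.09). Its cofactor A1cf was at 0.12 ± 0.14 CPM in 4OI libraries, against 8.09 ± 2.48 CPM in DMSO libraries. Apobec1 and A1cf were singled out after their values were seen. With Bobcat339 2 of the 15 were called, beside 20.7% of all genes tested. Lpcat3, a phospholipid-remodelling enzyme of VLDL assembly, was called higher (log2 fold change 0.32, SE 0.09, adjusted p = 0.0326). Sort1, which encodes the sorting receptor sortilin, was called lower (-0.32, SE 0.10, adjusted p = 0.037). Both calls were lost under several other settings, among them a fit of the 6 libraries alone (adjusted p = 0.0676 for Lpcat3 and 0.0614 for Sort1, edgeR).

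**Figure D5:**
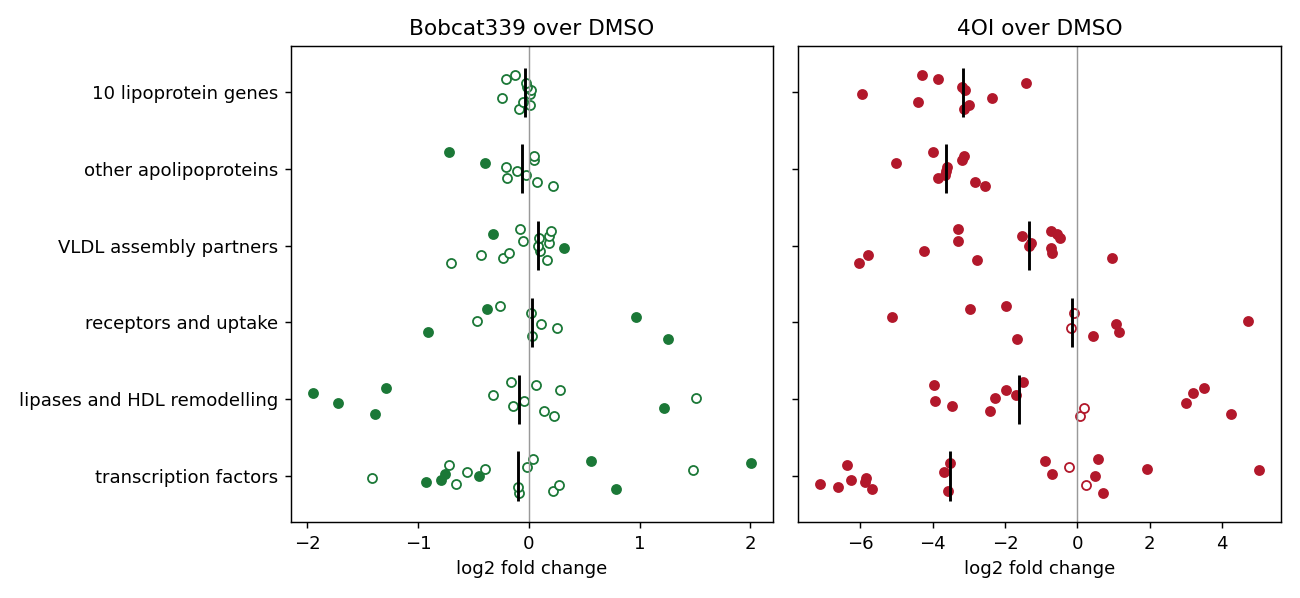
Log2 fold change over DMSO of every tested gene in 6 lists, for Bobcat339 on the left and 4OI on the right, on separate scales. Filled points were called at an adjusted p under 0.05, open points were not, and black bars are medians, at -0.04 for the 10 lipoprotein genes with Bobcat339 and -3.17 with 4OI.

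With Bobcat339, where 0 of the 10 lipoprotein genes were called, several genes for the receptors and lipases of lipoproteins were. Of 10 receptor and uptake genes 2 were called higher and 2 lower with Bobcat339, beside 11.6% and 9.06% of all genes tested. Their median log2 fold change was 0.03. Lrp1, a receptor for remnants, had 163 ± 8.20 CPM in Bobcat339 libraries, against 306 ± 25.7 CPM in DMSO libraries (log2 fold change -0.91, SE 0.08). In 4OI libraries Lrp1 was higher, at 676 ± 29.0 CPM (log2 fold change 1.15, SE 0.08). With 4OI, 4 of the 10 were called higher and 4 lower, beside 33.3% and 30.4% of all genes tested. The syndecan gene Sdc1, whose product binds remnants on the hepatocyte surface, had 37.3 ± 0.42 CPM in 4OI libraries, against 293 ± 30.9 CPM in DMSO libraries (log2 fold change -2.97, SE 0.11). Mylip, which encodes a ubiquitin ligase, had 41.3 ± 3.82 CPM in 4OI libraries, against 1.56 ± 0.44 CPM in DMSO libraries (log2 fold change 4.73, SE 0.22).

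Among 14 genes for plasma lipases, HDL remodelling and their regulators, 1 was called higher and 4 lower with Bobcat339, and 4 higher and 8 lower with 4OI. Over all genes tested, 11.6% were called higher and 9.06% lower with Bobcat339, and 33.3% and 30.4% with 4OI. Lpl, lipoprotein lipase, had 10.2 ± 1.43 CPM in Bobcat339 libraries and 364 ± 12.2 CPM in 4OI libraries, against 39.3 ± 5.49 CPM in DMSO libraries. The log2 fold changes were -1.95 (SE 0.12) with Bobcat339 and 3.21 (SE 0.13) with 4OI. Pltp, the phospholipid transfer protein of HDL, had a log2 fold change of -1.29 (SE 0.16) with Bobcat339 and 3.52 (SE 0.16) with 4OI, and Angptl4, an inhibitor of lipoprotein lipase, one of 1.22 (SE 0.09) with Bobcat339. Macrophage markers moved in the same directions as Lrp1, Lpl and Pltp. Of the 13 markers 12 were called lower with Bobcat339 and 13 higher with 4OI, with median log2 fold changes of -2.21 and 3.35. Their part in these values was not tested. The hepatocyte enzymes Pon1, a paraoxonase carried on HDL, and Lipc, hepatic lipase, fell with 4OI by 3.96 (SE 0.08) and 3.93 (SE 0.12) on the log2 scale.

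Of 19 transcription factors known to act on apolipoprotein genes, 5 were called higher and 12 lower with 4OI, beside 33.3% and 30.4% of all genes tested. Hnf4a, the nuclear receptor of hepatocyte genes, had 2.57 ± 0.74 CPM in 4OI libraries, against 152 ± 2.30 CPM in DMSO libraries (log2 fold change -5.88, SE 0.18, adjusted p = 5.67e-10). Foxa2, a pioneer factor of liver genes, had a log2 fold change of -6.61 (SE 0.16), and Mlxipl, the carbohydrate response factor ChREBP, one of -6.27 (SE 0.22). With Bobcat339 3 were called higher and 4 lower, beside 11.6% and 9.06% of all genes tested. Hnf4a had 80.1 ± 3.69 CPM in Bobcat339 libraries (log2 fold change -0.92, SE 0.14, adjusted p = 0.00124), beside 0 of the 10 lipoprotein genes called. Nr1h3, the oxysterol receptor LXR alpha, had a log2 fold change of -0.75 (SE 0.09), and the coactivator Ppargc1a one of 2.00 (SE 0.29).

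Other cell types were also sampled by markers. Stellate cell and fibroblast markers were called higher with 4OI for 8 of 9, beside 33.3% of all genes tested. Their median log2 fold change was 1.29. Dcn changed the most, at 138 ± 7.09 CPM in 4OI libraries, against 5.08 ± 1.09 CPM in DMSO libraries. Reln had a log2 fold change of only 0.47, and Col3a1 was not called (-0.08). Apoa4 and Apob are also made by the intestine, and the small intestine markers Sis and Fabp6 had no counts in either 4OI or DMSO libraries. The 9 small intestine markers summed to 65.2 to 78.1 CPM in 4OI libraries, against 52.2 to 60.7 CPM in DMSO libraries, and Anpep, a peptidase of many cell types, made up most of it. The sum hides opposite directions, since 5 of the 7 tested were called lower with 4OI and only Anpep higher, with a median log2 fold change of -4.53. Anpep had 71.5 ± 7.23 CPM in 4OI libraries, against 36.9 ± 7.03 CPM in DMSO libraries, and Vil1, which encodes the brush border protein villin, 0.34 ± 0.29 CPM in 4OI libraries, against 9.61 ± 0.95 CPM in DMSO libraries. Colon markers summed to 1.14 to 15.1 CPM in 4OI libraries, against 164 to 192 CPM in DMSO libraries, with all 8 called lower. In Bobcat339 libraries they summed to 154, 17.5 and 13.9 CPM, so replicate 1 was near the DMSO level and the other 2 near that of 4OI. The cholangiocyte markers Krt19, at 16.1, 2.10 and 1.87 CPM, and Epcam, at 14.7, 1.96 and 1.83 CPM, were split in the same way. Of the 8 colon markers 0 were called with Bobcat339 and 0 had an unadjusted p under 0.05, by edgeR in a fit that includes replicate 1. Lymphocyte and neutrophil markers summed to 4.88 to 5.48 CPM in 4OI libraries, against 3.85 to 5.09 CPM in DMSO libraries. This sum also hides opposite directions, since of the 5 tested 1 was called higher and 1 lower with 4OI. In Bobcat339 libraries they summed to 4.16, 0.31 and 0.76 CPM. Cholangiocyte markers summed to 33.5 to 38.6 CPM in 4OI libraries, against 105 to 119 CPM in DMSO libraries. The part of these cells in the lipoprotein values was not tested.

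Across the 9 libraries the levels of the 10 genes varied nearly together, with Pearson correlations of log2 levels between 0.973 (Apob and Apoe) and 0.999 (Apoa2 and Apoc1). These values follow mainly from the gap between the 4OI libraries and the others and are a description over 9 libraries in 3 groups. By the same measure the gene most like each member was Cyp2d10 for Apoa1, Tmem205 for Apoa2, F12 for Apoa4, Gcdh for Apoa5, Cdh2 for Apob, Saa2 for Apoc1, Aqp8 for Apoc3, Smad3 for Apoe, Dmgdh for Mttp and Cyp4f14 for Lcat. Their correlations ran from 0.999 to 0.9998. Cdh2 had 19.5 CPM in 4OI libraries, against 107 CPM in DMSO libraries, a smaller change than that of Apob. Reads of Saa2 may be shared with the near-identical Saa1.

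The direct comparison of 4OI with Bobcat339 gave values close to those against DMSO, with the Bobcat339 libraries as the other side. All 10 genes were called lower in 4OI libraries, beside 62.2% of all genes called (30.9% higher and 31.3% lower), with a median log2 fold change of -3.16. Apob was 62.5-fold lower (log2 fold change -5.97, SE 0.18), and Apoe was 2.63-fold lower (-1.39, SE 0.10), again at the ends of the range.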

How the data were processed

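The authors deposited 1 table with a column for each library. Per the labels, the tools were CASAVA 1.8, HISAT2 2.0.5 and featureCounts 1.5.0-p3, and no genome build is named there. The deposited values are expected counts, that is, unscaled estimated counts in whole numbers. Of values from 4 to 40, multiples of 4 made up 43.7% to 45.6%, beside 27.0% if spread evenly, and how many counts 1 read pair gave was not settled. Symbols were found for 52073 genes (91.9%). Total counts are given in the text, and precision covers counting and replicate error only.

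The test was the quasi-likelihood test of edgeR 4.0.16 under R 4.3.3, in 1 fit of the 9 libraries with TMM factors, after filterByExpr had kept 18379 genes. It was two-sided, with Benjamini-Hochberg adjustment over those genes and calls at 0.05. The biological coefficient of variation was 0.24. Levels are CPM after TMM scaling. Shares and ratios were compared by exact permutation (SciPy 1.17.1, Python 3.11.15), and figures used matplotlib 3.10.9. Transcript lengths are of GENCODE vM21 principal transcripts, found for 98.0% of tested genes. Promoters are RefSeq, GRCm38.p6. The edgeR fit was tested on simulated data in which few genes changed, and only in the Bobcat339 libraries. Changes as widespread as those with 4OI were not simulated.

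The members and gene lists were chosen with earlier results of these data known. The rule for names took all 10 members, Alb and Hnf4a. From each pathway list and treatment it took up to 3 called genes with the smallest adjusted p. From each marker list it took the 2 genes with the highest mean CPM and those at 0 in a group. For each member it took the most correlated gene with at least 10 CPM. Some genes taken by this rule, and 1 of the motifs searched, are not reported here. Alternatives were DESeq2 1.42.0, other scalings and filters, only 6 libraries, a replicate block, a 2-fold minimum, values divided by 4, other denominators, and each library left out.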

Additional observations from a re-analysis of the deposited data

How the results depend on the processing

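All 10 lipoprotein genes stayed lower and called for 4OI against DMSO and against Bobcat339 in the 18 other settings run, the 2-fold minimum included, and log2 fold changes for 4OI against DMSO ran from -6.06 to -1.33. For Bobcat339 against DMSO 0 of the 10 were called in any setting (lowest adjusted p 0.105), and values near 0 changed sign. With DESeq2 the log2 fold changes were -0.0515 for Apoa2, -0.0558 for Apob and -0.0435 for Apoc1, the same to 3 digits as with edgeR's RLE scaling, with library size only they were -0.0239 for Apoa2, -0.0243 for Apob and -0.0171 for Apoc1, and with a replicate block -0.0066 for Apob and -0.00082 for Apoc1. Leaving out 1 library gave Apoa1 from -0.206 to 0.0105, Apoa2 from -0.16 to 0.14, Apoa4 from -0.125 to 0.0135, Apob from -0.19 to 0.15, Apoc1 from -0.18 to 0.15, Apoc3 from -0.174 to 0.0843 and Apoe from -0.111 to 0.0626. The cause was not tested. All calls for Bobcat339 numbered 3802, and leaving out 1 library gave 2426 (without DMSO replicate 1) to 4115, with 2485 without Bobcat339 replicate 2. A 2-fold minimum left 191 calls for Bobcat339 against DMSO, 5609 for 4OI against DMSO and 5350 for 4OI against Bobcat339, and the first of these excluded Hnf4a and Ppargc1a (adjusted p = 0.0537) among others. Of the Bobcat339 calls 56.2% were higher, beside 46.1% with RLE scaling and 45.1% with DESeq2. Scaling by library size alone moved the median of all genes for 4OI against Bobcat339 to 0.122. DESeq2 also called Alb lower with Bobcat339 (-0.19, adjusted p = 0.0347). The log2 ratio of the summed shares, 4OI over DMSO, was -2.11, and -3.87 without Apoe; without 1 library it ran from -2.16 to -2.07. The median difference relative to Alb was 0.97, but 0.19 relative to Ttr and 0.78 relative to the summed hepatocyte markers. Replicate numbers did not pair the libraries across all 3 groups, with correlations of same-numbered deviations of -0.0726 to 0.316. The highest was for replicate 3 of DMSO and Bobcat339, and whether those 2 groups were paired was not settled. With replicate numbers as a block 4080, 11749 and 11394 genes were called in the 3 comparisons, in place of 3802, 11711 and 11438, and no call of a lipoprotein gene changed. Depth limits little here, since the lowest member count was 366 deposited counts (Lcat, 4OI).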
